A study of Mus musculus with 4 samples.

Results

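Chst1, Tent5c, Reln and Mtdh were each measured by 1 probe on Illumina arrays of sorted mouse spleen cells, so that 4 of the 46120 probes on the array are described here. The probes were found by the NCBI gene number inside the probe identifier, which is 76969 for Chst1, 74645 for Tent5c, 19699 for Reln and 67154 for Mtdh. They are 4 of the 8133 genes with a named probe. The genes were chosen by their log2 differences between plasma cells and naive B cells on these same arrays. Values against naive cells are therefore given as a description with no test, and the difference between the plasma cell populations is the tested one.

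The groups were Blimp1-hi plasma cells (1 array), Blimp1-int plasma cells (2 arrays) and naive follicular B cells (1 array). All cells came from the spleens of C57BL/6 mice that carry the prmd1-gfp reporter, as the labels spell it, in which GFP follows the gene of the transcription factor Blimp1. Plasma cells were sorted as CD138+ with high or intermediate Blimp1, from pools of 5 to 10 animals, and naive cells as B220+ IgD+. The cell type label of the plasma cell samples reads follicular B cells, against their titles and sort descriptions, and the titles were followed. No source says that the Blimp1-int samples came from separate pools, so the p-values rest on the spread of that 1 pair, which may be technical.

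Plasma cells are the antibody-secreting end stage of the B cell lineage. Blimp1 shuts down much of the B cell programme in them, and Xbp1 enlarges the endoplasmic reticulum and Golgi through which antibody leaves the cell. The proteins of the 4 genes have separate roles. Chst1 is a Golgi enzyme that adds sulfate to galactose in keratan sulfate and related sugar chains. Tent5c, also known as Fam46c, is a poly(A) polymerase that lengthens the tails of messenger RNAs, those of immunoglobulin chains in mouse plasma cells among them, and its human gene is often mutated in multiple myeloma. Reln encodes reelin, a large secreted glycoprotein best known for placing neurons in the developing brain through the receptors Vldlr and Lrp8 and the adaptor Dab1. Mtdh, also called metadherin or AEG-1, is a membrane protein of the endoplasmic reticulum that binds RNA and the nuclease Snd1, and is best studied in human cancers.

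The DNA just before the annotated start of a gene is shown for Chst1, Tent5c and Reln, since their transcripts were high together on the plasma cell arrays. Of the 4 genes 3 had a promoter window in the RefSeq table (assembly GRCm38.p6), and Mtdh had none there. Each run holds the 250 bases before the start, 5′ to 3′ on the strand of the gene, and capitals mark a match to a searched motif. Chst1 lies at chr2:92600867-92601116 on the plus strand, Tent5c at chr3:100489193-100489442 on the minus strand, and Reln at chr5:22344706-22344955 on the minus strand.
Chst1: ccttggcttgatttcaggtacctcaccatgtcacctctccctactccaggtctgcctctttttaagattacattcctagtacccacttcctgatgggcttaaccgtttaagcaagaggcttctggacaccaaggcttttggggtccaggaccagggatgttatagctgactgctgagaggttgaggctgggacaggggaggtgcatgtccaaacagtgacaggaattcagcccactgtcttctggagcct
Tent5c: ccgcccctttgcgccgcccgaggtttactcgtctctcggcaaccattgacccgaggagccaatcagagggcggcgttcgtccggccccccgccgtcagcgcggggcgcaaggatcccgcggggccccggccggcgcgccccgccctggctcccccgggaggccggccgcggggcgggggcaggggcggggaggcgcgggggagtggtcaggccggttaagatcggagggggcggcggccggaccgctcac
Reln: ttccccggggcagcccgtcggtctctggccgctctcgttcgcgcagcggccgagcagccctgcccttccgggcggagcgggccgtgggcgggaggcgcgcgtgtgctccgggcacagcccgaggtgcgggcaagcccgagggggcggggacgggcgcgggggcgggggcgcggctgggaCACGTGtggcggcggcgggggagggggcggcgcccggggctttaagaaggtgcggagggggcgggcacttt

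The windows differed in base composition. GC made up 51.6% of the Chst1 window, which held 1 CpG, and the median over 32841 searched mouse windows of the same length was 52.4% GC and 6 CpGs. The Tent5c window was 78.8% GC with 37 CpGs, and the Reln window 80% GC with 37 CpGs. The GC content was lower in 98.28% of all windows than in that of Tent5c, in 98.77% than in that of Reln, and in 46.9% than in that of Chst1. The Chst1 window lay inside the extent that RefSeq gives for the gene, so another start of this gene lies upstream of it.

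Each of 6 motifs linked to plasma cell regulators was searched on both strands. They were GAAAGT, the core of the Blimp1 site, found in 12.3% of all windows, GAAA and GAAA with any 2 bases between, an interferon response type of site that IRF4 and Blimp1 bind, in 2.98%, and GGAA and GAAA with any 2 bases between, an Ets-IRF composite, in 2.3%. The others were ACGTG, the core of XBP1 and ATF6 sites, in 16.6%, the endoplasmic reticulum stress element, searched as CCAAT and CCACG with any 9 bases between, in 0.113%, and the E-box CANNTG in 66.2%. The Reln window held ACGTG on both strands, in overlapping positions that start at -71 and -70 from the gene's start, and together they read as the capitals CACGTG, which is also an E-box. These letters of the 6 motifs were not in the Chst1 and Tent5c windows.

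All 4 genes were higher on every plasma cell array than on the naive array. This holds by the choice of the genes, and 37.8% of the 9366 probes above background on at least 1 array also had all 3 plasma cell arrays above the naive array. Values are on the deposited log2 scale, on which each array had a median of 8.36 and a maximum of 16.03. A probe was taken as above background on an array when it passed the mean plus 3 SD of 42 control probes for foreign sequences, which came to 8.65 for Blimp1-hi, 8.66 and 8.68 for Blimp1-int and 8.63 for naive cells. Levels of different probes are not compared here.

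Chst1 read 12.71 in Blimp1-hi, 11.87 and 12.65 in the Blimp1-int replicates, and 8.43 in naive cells. The naive value lay 0.20 below the cutoff of its array, so only a bound can be given for the fold. Against naive cells the transcript was higher by at least 16.97-fold in Blimp1-hi and by at least 12.39-fold in Blimp1-int, counted from the lowest signal above background on the naive array. The deposited differences of 4.29 and 3.83 are not exact for the same reason. The Blimp1-int replicates differed by 0.78, a gap that only 0.459% of all tested probes matched or passed. Their mean was 12.26 ± 0.55 (SD, n = 2).

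Tent5c read 11.22 in Blimp1-hi, 11.56 and 11.53 in the Blimp1-int replicates, and 8.30 in naive cells. The naive value was again below background, by 0.33. Set against naive cells, Tent5c was higher by at least 6.02-fold in Blimp1-hi and by at least 7.55-fold in Blimp1-int, with deposited differences of 2.92 and 3.25 that are likewise not exact. The Blimp1-int mean was 11.55 ± 0.02 (SD, n = 2), and 78.7% of probes had a gap between these replicates as wide or wider.

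Reln read 11.53 in Blimp1-hi, 11.33 and 11.03 in the Blimp1-int replicates, and 8.74 in naive cells. The naive value stood 0.11 above the cutoff, close enough to it that the naive level is poorly fixed. Reln exceeded its naive level 6.89-fold in Blimp1-hi and 5.42-fold in Blimp1-int, or 2.78 and 2.44 on the log2 scale. Its Blimp1-int mean was 11.18 ± 0.21 (SD, n = 2), with a gap of 0.30 that 4.74% of probes matched or passed.

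Mtdh read 11.86 in Blimp1-hi, 12.17 and 12.22 in the Blimp1-int replicates, and 9.32 in naive cells, where it was clearly measured at 0.69 above the cutoff. It exceeded this level 5.83-fold in Blimp1-hi and 7.35-fold in Blimp1-int, or 2.54 and 2.88 on the log2 scale. The Blimp1-int mean was 12.20 ± 0.03 (SD, n = 2). Both comparisons with naive cells share the single naive array, so an error of that array enters both. In bulk RNA of this kind, a higher share of cells with a transcript and more of it per cell cannot be told apart.

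**Figure D1:**
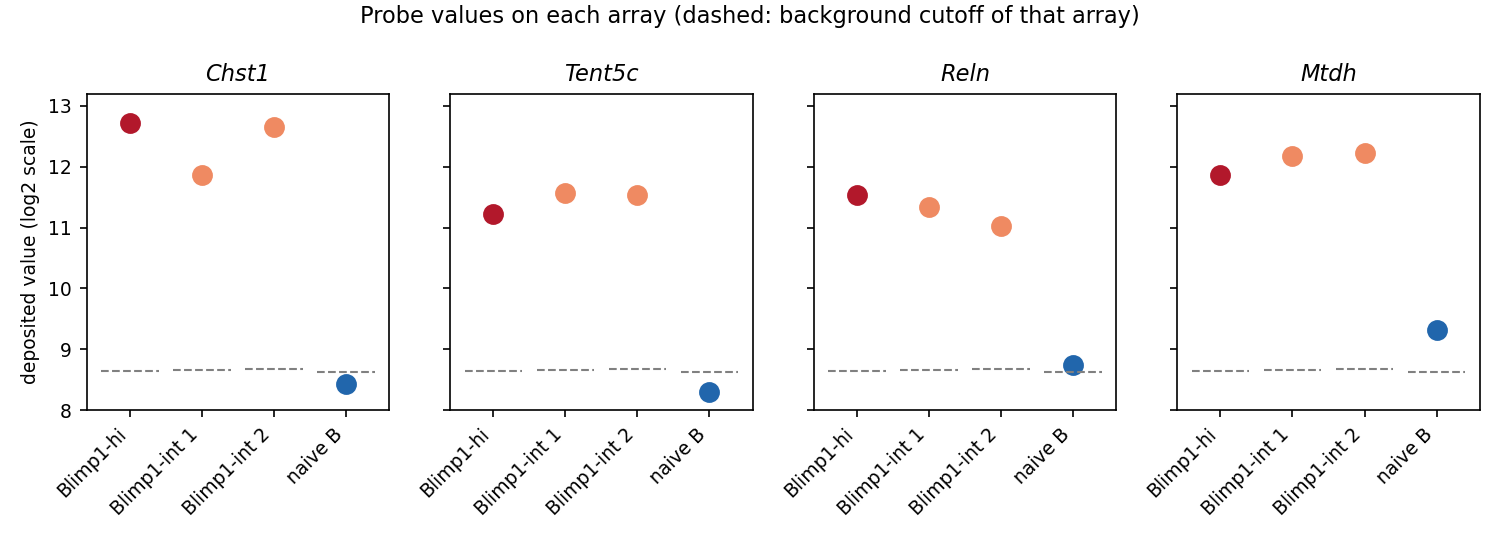
Deposited log2 values of the Chst1, Tent5c, Reln and Mtdh probes (y axis) on the Blimp1-hi array, the 2 Blimp1-int arrays and the naive B cell array (x axis), with 1 point per array and a dashed line at the background cutoff of that array. The naive points of Chst1 (8.43) and Tent5c (8.30) lie below the line and those of Reln (8.74) and Mtdh (9.32) above it, and the plasma cell points lie between 11.03 and 12.71.

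As background to these values, the share of tested probes called higher (at least 2-fold, with an adjusted p under 0.05 in limma) was 6.09% in Blimp1-hi against naive cells and 6.27% in Blimp1-int against naive cells, and 6.28% and 5.7% were called lower. By named genes it was 4.36% and 5.8%. Nothing is read from these shares for the 4 genes, which were chosen by the same differences.

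The direct comparison of the plasma cell populations, which the choice of genes did not use directly, asks whether cells with more of the Blimp1 reporter also had more of these transcripts. None of the 4 genes was called, and their differences were under 2-fold in size. In limma's fit with Benjamini-Hochberg adjustment 0 of the 4 had an adjusted p under 0.05, although 3 had an unadjusted p under it, as 22.8% of all tested probes did. Over all 9366 probes the share called in Blimp1-hi against Blimp1-int was 0.961% higher and 0.299% lower, and 6.41% had an adjusted p under 0.05 at any size. The genes did not share a direction, since Chst1 and Reln were higher and Tent5c and Mtdh lower in Blimp1-hi, in each case against both Blimp1-int replicates.

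Tent5c had a log2 difference, Blimp1-hi minus Blimp1-int, of -0.33 (SE 0.09, 95% interval -0.54 to -0.11, adjusted p = 0.0964, limma). Against the separate Blimp1-int replicates the difference was -0.34 and -0.31. Mtdh had a difference of -0.34 (SE 0.09, 95% interval -0.55 to -0.12, adjusted p = 0.0913, limma), or -0.31 and -0.36 against each replicate. These are folds of 0.798 and 0.793. The Blimp1-hi value lay outside the narrow Blimp1-int range for both genes, and 42.4% of all tested probes likewise lay below both Blimp1-int replicates. Differences of at least this size were seen in 13.6% of probes for Tent5c and 12.7% for Mtdh.

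Reln had a difference of 0.35 (SE 0.14, 95% interval 0.01 to 0.68, adjusted p = 0.209, limma), a fold of 1.27, or 0.19 and 0.50 against the separate replicates. Chst1 had a difference of 0.45 (SE 0.29, 95% interval -0.24 to 1.15, adjusted p = 0.404, limma), a fold of 1.37. Its value rests on 1 Blimp1-int library, because the difference was 0.84 against replicate 1 and 0.063 against replicate 2. Of all tested probes 37.9% lay above both replicates. The interval of Chst1 reaches past a difference of 1, so a 2-fold difference between the populations lies within it, while the intervals of the other 3 genes stay within 1.

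The adjusted p of all 4 depended on which probes were tested together. With no filter on dim probes, 46120 rows entered the fit and the adjusted p was 0.00318 for Chst1, 0.00698 for Tent5c, 0.00643 for Reln and 0.00509 for Mtdh, with the same differences, all still under 2-fold. That fit gave the shared spread of all probes 91.03 prior degrees of freedom, against 5.17 in the fit over probes above background, and so counted the gap between the Blimp1-int replicates of a gene far less. Both fits take the spread of the single Blimp1-hi and naive arrays to be that of the Blimp1-int pair.

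**Figure D2:**
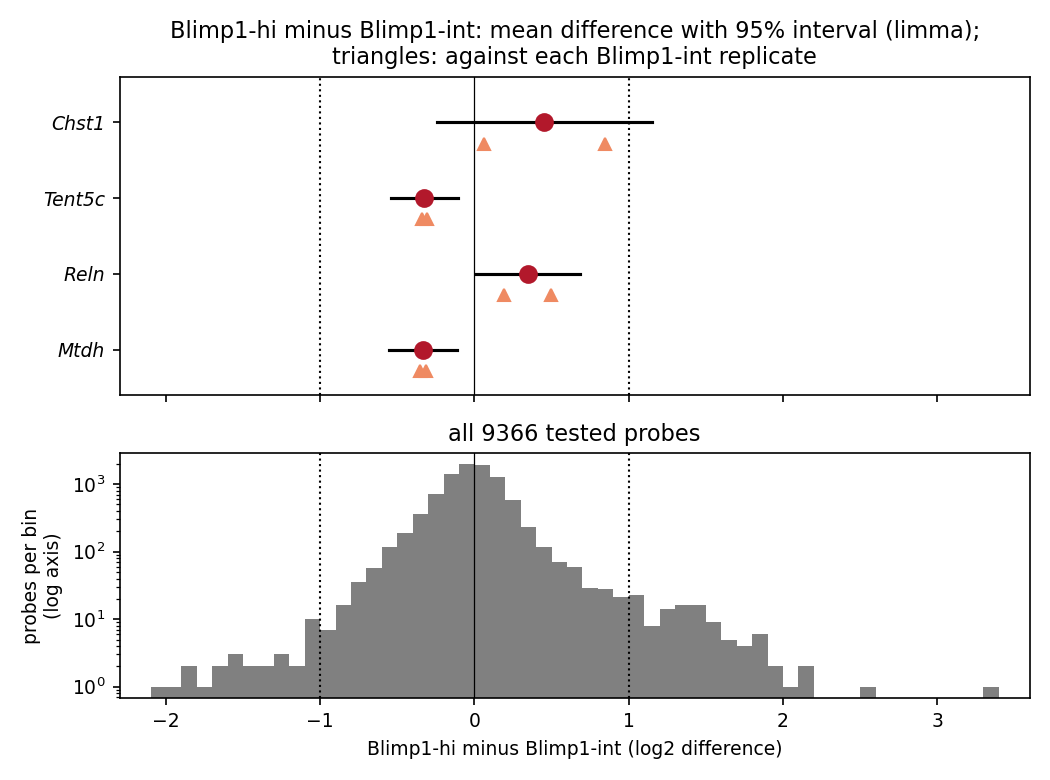
Upper panel: log2 difference Blimp1-hi minus Blimp1-int for each gene (red point) with its 95% interval from limma, and the difference against each of the 2 Blimp1-int replicates (triangles). Lower panel: number of the 9366 tested probes in each bin of that difference, on a log axis, with dotted lines at -1 and 1; the points of the 4 genes, from -0.34 to 0.45, lie between those lines, and only the interval of Chst1 crosses one.

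Of the markers used in the sort, those of plasma cells could be checked. The reporter probe for eGFP read 11.23 in Blimp1-hi, 10.55 and 10.82 in the Blimp1-int replicates and 8.29 in naive cells, and Sdc1, which encodes CD138, was above background on the plasma cell arrays alone. Ptprc, whose product carries the B220 form, read 8.61 in Blimp1-hi, 8.66 and 8.52 in the Blimp1-int replicates and 8.71 in naive cells. It was not called, and lay below background in Blimp1-hi and the second Blimp1-int replicate. On the other arrays Ptprc was close to the cutoff, so its level is poorly fixed. IgD was not analysed here. Of 20 listed plasma cell markers 13 had a named probe and 12 were above background, and 11 of them were called higher in each plasma cell population than in naive cells. Of all named genes 4.36% in Blimp1-hi and 5.8% in Blimp1-int were called higher. Sdc1, Jchain, Ighg1, Igha and Bhlha15 were below background in naive cells. They passed the filter on dim probes only through the plasma cell arrays, so their calls are a description and no independent check. Of 20 B cell markers 10 had a named probe and 9 were above background, with 7 called lower in Blimp1-hi and 8 in Blimp1-int. Of all named genes 7.49% and 5.61% were called lower. Cd72, Spib, Fcer2a, Cd40 and Bcl11a were below background on every plasma cell array. They passed the filter only through the naive array, so their calls are likewise a description. The T and NK cell markers (3) and granulocyte markers (8) with a named probe were below background on every array. Of 4 erythroid markers Hba-a1 alone passed it, on the naive array, and of 7 stromal and endothelial ones Pecam1 alone did, at 8.80 in Blimp1-hi, 8.76 and 8.73 in the Blimp1-int replicates and 9.66 in naive cells. Of 8 macrophage and dendritic cell markers 3 passed background, and Apoe read 9.91 in Blimp1-hi, 8.76 and 8.97 in the Blimp1-int replicates and 9.22 in naive cells. Apoe is the only one of these markers of other cells that was called between the plasma cell populations, and its part in the differences of the 4 genes was not tested.

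The values of the 4 genes were next set beside those of all named genes. Likeness was the Euclidean distance between log2 values of the 4 arrays after each gene's own mean was subtracted, and the 5 nearest genes are given. With 4 arrays, of which 1 is naive, this measure is set mostly by the size of the difference from naive cells. Chst1, Tent5c, Bhlha15, Jchain, Ighg1 and Tmed10 were below background in naive cells, so their differences are known only as bounds. Distances that involve them, and the order of the near genes, are therefore not exact.

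Chst1 stood nearest to Txndc5 at a distance of 0.578, a disulfide isomerase family member of the endoplasmic reticulum. Txndc5 read 13.93 in Blimp1-hi, 13.43 and 13.92 in the Blimp1-int replicates and 10.36 in naive cells, and so shared with Chst1 the lower value in the first Blimp1-int replicate. The other near genes were Ighg1 (0.887), the constant region of IgG1, Xbp1 (0.910), Edem2 (0.944), which acts in the disposal of misfolded glycoproteins, and Tmed10 (1.12), a cargo receptor between the endoplasmic reticulum and Golgi. Chst1 was farther from its nearest gene than the others were from theirs.

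Tent5c stood nearest to Ssr4 (0.231), a subunit of the translocon-associated complex through which new secretory proteins enter the endoplasmic reticulum. Ssr4 read 13.29 in Blimp1-hi, 13.93 and 13.68 in the Blimp1-int replicates and 10.40 in naive cells, and like Tent5c it was lower in Blimp1-hi than in both Blimp1-int replicates. Mtdh itself came next (0.327), before Tmed10 (0.386), Bhlha15 (0.500), the secretory cell transcription factor also called Mist1, and Edem2 (0.517).

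Mtdh stood nearest to Bhlha15 (0.232), which read 10.63 in Blimp1-hi, 10.88 and 10.75 in the Blimp1-int replicates and 8.17 in naive cells. Tent5c (0.327), the lysosomal protease gene Ctsb (0.354), the class I histocompatibility gene H2-K1 (0.390) and Nucb1 (0.420), a calcium-binding protein of the Golgi, followed. Tent5c and Mtdh were thus the closest pair among the 4 genes, at 0.327, and Chst1 and Reln the farthest apart, at 1.46.

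Reln stood nearest to Jchain (0.257), which links IgM and IgA into polymers and read 11.25 in Blimp1-hi, 10.73 and 10.54 in the Blimp1-int replicates and 8.15 in naive cells. Reln and Jchain shared the order of all 4 arrays. The naive array is lowest by the choice of Reln, and 37.9% of tested probes had Blimp1-hi above both Blimp1-int replicates. Ctsb (0.283), Sel1l (0.305), a part of the machinery that clears misfolded proteins from the endoplasmic reticulum, H2-K1 (0.328) and Bhlha15 (0.452) followed.

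**Figure D3:**
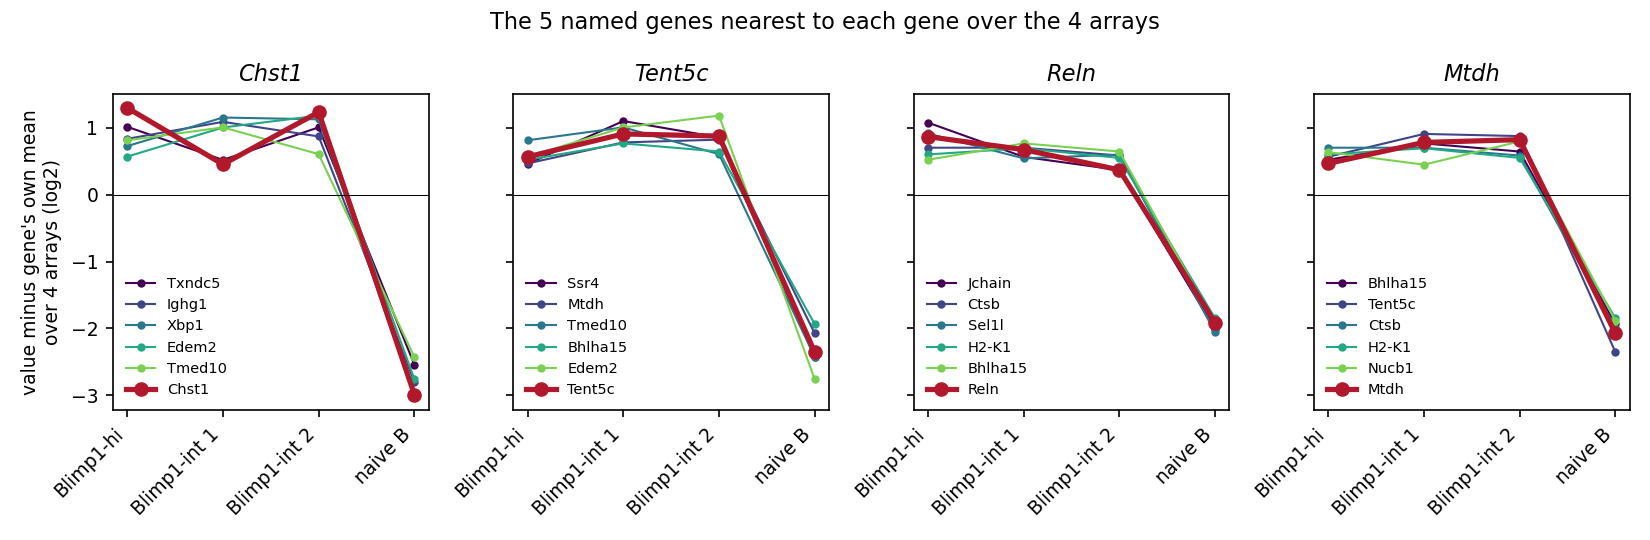
Log2 value minus the gene's own mean over the 4 arrays (y axis) on the Blimp1-hi, Blimp1-int and naive B cell arrays (x axis), for each of the 4 genes (thick red) and the 5 named genes nearest to it (thin lines). The naive point is the lowest in every line; the Chst1 line dips at the first Blimp1-int array, as that of Txndc5 does.

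The genes that work with the 4 were taken from 6 lists of 180 genes, of which 93 had a named probe and 39 were above background on at least 1 array. Called higher than in naive cells were 1 of 39 in Blimp1-hi, where 4.36% of all named genes were, and 4 of 39 in Blimp1-int, where 5.8% were. In limma's fit 0 of 39 were called lower than naive in either population. Of named genes 7.49% in Blimp1-hi and 5.61% in Blimp1-int were called lower. No deposited difference of the 39 reached a 2-fold fall, but genes below background in plasma cells have only a bound. Ikbkb was such a gene, lower by at least 1.61-fold in Blimp1-hi and 1.59-fold in Blimp1-int, so a fall of 2-fold is not excluded for it. At any size, 15 of 39 in Blimp1-hi and 14 of 39 in Blimp1-int were lower with an adjusted p under 0.05, where 27.9% and 27.7% of named genes were. With an unadjusted p under 0.05 they were 18 and 17 of 39, against 33% and 30.7% of named genes. These counts take in genes such as Ikbkb, Ap2a1, Cnot3 and Btg1, which passed the filter only through the naive array. Higher with an adjusted p under 0.05 in limma were 7 of 39 in Blimp1-hi and 8 of 39 in Blimp1-int. With an unadjusted p under 0.05, 11 of 39 were higher in each population. The shares of named genes higher at any size were not counted. The median difference over the 39 was -0.15 in Blimp1-hi and -0.12 in Blimp1-int, against -0.06 and 0.01 over all named genes.

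Of 30 Golgi sulfotransferases 11 had a named probe and 4 were above background, and Tpst1 was called. It sulfates tyrosine residues of secreted proteins, not sugar chains. Tpst1 read 10.74 in Blimp1-hi, 10.95 and 10.89 in the Blimp1-int replicates and 9.64 in naive cells, and rose by 1.10 in Blimp1-hi (SE 0.11, adjusted p = 0.000453, limma) and by 1.28 in Blimp1-int (SE 0.09, adjusted p = 0.000109, limma). The median of the 4 was 0.11 in Blimp1-hi and 0.09 in Blimp1-int. Chst2, Chst15 and Ndst1 were not called, and Chst15 read 8.96 in Blimp1-hi, 8.76 and 8.84 in the Blimp1-int replicates and 9.70 in naive cells.

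Of 25 genes for sulfate donor supply and keratan sulfate chains 7 had a named probe, and of these only St3gal1, a Golgi sialyltransferase, was above background. It read 9.19 in Blimp1-hi, 9.76 and 9.66 in the Blimp1-int replicates and 8.89 in naive cells. Its difference of -0.52 between Blimp1-hi and Blimp1-int had an adjusted p of 0.0327 in limma and was under 2-fold, so it was not called. Papss2, which makes the activated sulfate that Chst1 uses, was below background on every array, between 8.24 and 8.37. Papss1, Slc35b2 and Slc35b3 of the same list had no named probe, so the supply of sulfate donor cannot be read from these values.

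Of 33 genes of poly(A) tail synthesis and binding 19 had a named probe and 13 were above background, with none called in Blimp1-hi and 2 called higher in Blimp1-int. Fndc3a encodes a protein that holds TENT5C at the endoplasmic reticulum in human myeloma cells. It read 9.21 in Blimp1-hi, 9.59 and 9.40 in the Blimp1-int replicates and 8.49, below background, in naive cells. It was at least 1.82-fold higher in Blimp1-int, a bound under 2-fold. The deposited difference of 1.01 is not exact, and the call rests on the naive value below background. Fndc3a passed the filter on dim probes only through the plasma cell arrays, so no p against naive cells is given for it. The difference in Blimp1-hi was 0.72. Pabpc1, the main cytoplasmic poly(A)-binding protein, read 11.55 in Blimp1-hi, 11.83 and 11.45 in the Blimp1-int replicates and 10.61 in naive cells. Its difference was 1.03 in Blimp1-int (SE 0.16, adjusted p = 0.00265, limma) and 0.94 in Blimp1-hi, and the Blimp1-int call ended under cyclic loess normalization, at 0.78. The median over the 13 was -0.15 in Blimp1-hi and -0.03 in Blimp1-int.

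Of 25 deadenylases and adaptors, which shorten the tails that Tent5c lengthens, 17 had a named probe, 10 were above background and 1 was called. Cnot6, a catalytic subunit of the CCR4-NOT deadenylase, read 9.45 in Blimp1-hi, 9.84 and 9.56 in the Blimp1-int replicates and 8.68 in naive cells. It was higher than in naive cells by 1.02 in Blimp1-int (SE 0.13, adjusted p = 0.00128, limma) and by 0.76 in Blimp1-hi, where it was not called. The naive value of Cnot6 lay just above the cutoff of 8.63, so its naive level and these differences are poorly fixed. The calls of Fndc3a, Pabpc1 and Cnot6 rest on the first Blimp1-int replicate, since without it their differences were 0.91, 0.84 and 0.88, under the threshold of 1. Whether their differences from naive cells differ between Blimp1-hi and Blimp1-int is the direct comparison of these populations, in which their adjusted p was 0.2, 0.773 and 0.312 in limma.

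The reelin receptor and adaptor with a named probe were below background. Vldlr lay between 8.26 and 8.50 and the 2 Dab1 probes between 8.03 and 8.40 on the 4 arrays, and Lrp8 was not analysed here. Of 39 genes of the reelin pathway 24 had a named probe and 3 passed background, Rap1b, Pafah1b1 and Pik3r1, and 0 were called in limma's fit. Rap1b, a small GTPase downstream of Dab1, read 11.53 in Blimp1-hi, 11.48 and 11.58 in the Blimp1-int replicates and 11.94 in naive cells. Pafah1b1, the Lis1 protein of dynein transport, read 9.55 in Blimp1-hi, 10.03 and 9.93 in the Blimp1-int replicates and 9.49 in naive cells. A value below background bounds a level from above and does not show that a transcript is absent.

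Of 28 partners of Mtdh and NF-kB genes 15 had a named probe, 8 were above background and 0 were called in limma's fit. The median of the 8 was -0.42 in Blimp1-hi and -0.37 in Blimp1-int against naive cells. Snd1, Rela, Relb, Nfkb1 and Nfkb2 had no named probe, and Rel was below background on every array. That median therefore takes in neither Snd1 nor any of these NF-kB subunit genes. Ybx1, an RNA-binding cold shock protein, read 12.39 in Blimp1-hi, 12.85 and 12.75 in the Blimp1-int replicates and 13.17 in naive cells. Its difference from naive cells was -0.78 in Blimp1-hi and -0.37 in Blimp1-int. Under cyclic loess it was called lower in Blimp1-hi at -1.15. Sqstm1, the autophagy receptor p62, read 10.00 in Blimp1-hi, 9.72 and 9.79 in the Blimp1-int replicates and 9.85 in naive cells. Between the plasma cell populations 0 of the 39 listed genes were called in limma's fit, where 0.185% of named genes were called higher and 0.406% lower, and 11 had an unadjusted p under 0.05, as 25.9% of named genes did. Besides St3gal1, 1 of them passed an adjusted p of 0.05 without reaching 2-fold, Zfp36l1, named after its values were seen, which recruits deadenylases to messenger RNAs. It read 10.99 in Blimp1-hi, 10.27 and 10.33 in the Blimp1-int replicates and 10.55 in naive cells, a difference of 0.69 between the plasma cell populations (adjusted p = 0.0139, limma).

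**Figure D4:**
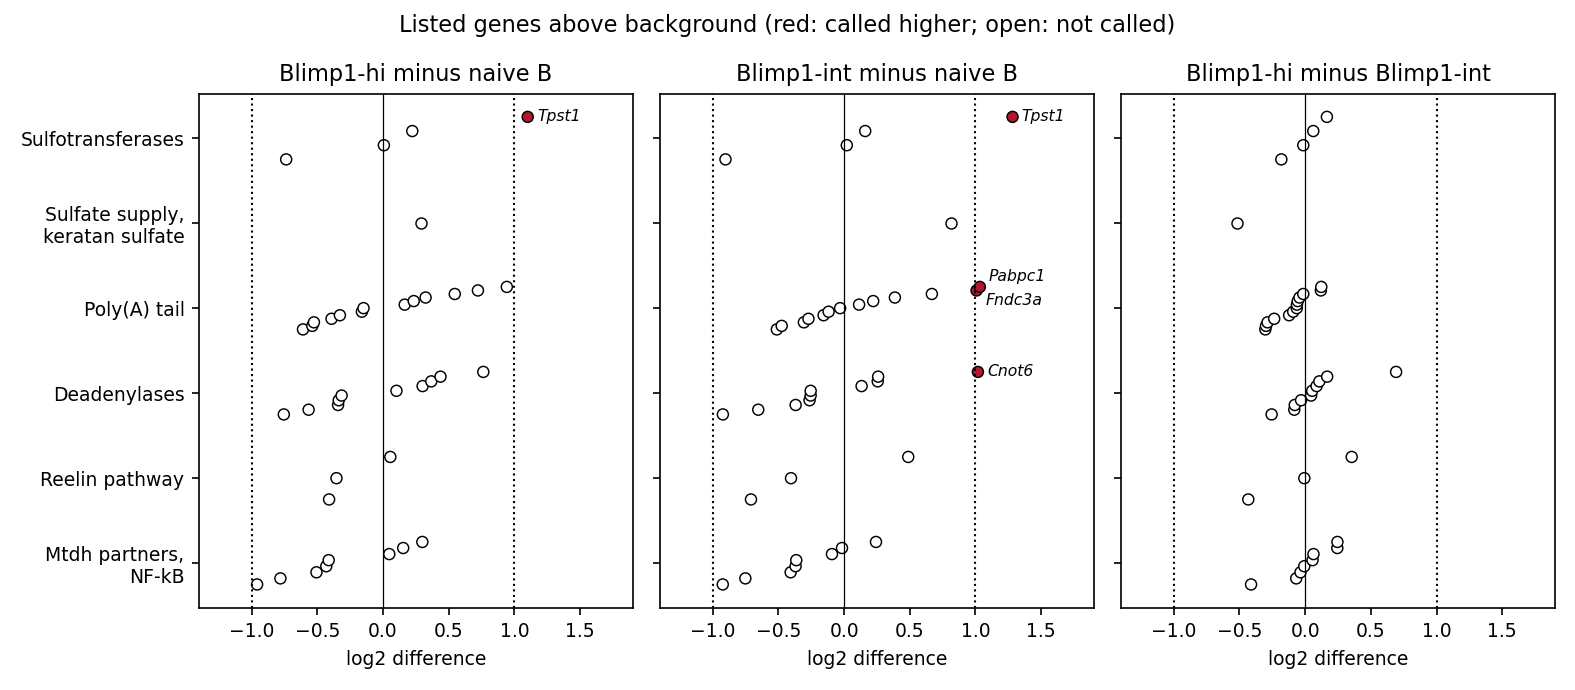
Log2 difference (x axis) of the 39 listed genes above background, by list (y axis), in Blimp1-hi minus naive, Blimp1-int minus naive and Blimp1-hi minus Blimp1-int; dotted lines mark -1 and 1. Red points were called higher and open points were not called; Tpst1 is red in both comparisons with naive cells, and Fndc3a, Pabpc1 and Cnot6 in that of Blimp1-int alone.

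A further probe may belong to Mtdh and did not share its pattern. RefSeq gives the RIKEN clone 2610103J23 as a synonym of Mtdh, and a probe named for that clone, which the choice by gene number does not take in, read 8.37 in Blimp1-hi, 8.39 and 8.27 in the Blimp1-int replicates and 8.35 in naive cells. It was below background on all 4 arrays, where the probe found by gene number read 9.32 to 12.22. Of 134 genes with both a gene-number probe above background and a clone probe, the clone probe was below background on every array for 108. The same held for 5 of the 6 with a difference of at least 1 between Blimp1-int and naive cells. Mtdh itself is counted in each of these numbers. The probe sequences were not used here, so which transcript each probe reads was not tested.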

How the data were processed

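RNA of sorted cells had been hybridised to single-colour Illumina arrays. The values used are the deposited log2 values, which the authors made with lumi (version not given) per the submitters' processing notes. The sources used here do not say whether the scale is a plain or a variance-stabilized log2, and on the second kind folds of dim genes are understated. A deposited table of raw signals has 8 value columns whose names match no sample, and they were not used. Of 11897 identifiers with a gene number 9832 matched a RefSeq gene, and 9 immunoglobulin constant region probes were named by identifier. For listed genes the brightest probe above background was used.

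A linear model of the 3 groups (limma 3.58.1, R 4.3.3, eBayes, two-sided) was fitted to the 9366 probes above background on at least 1 array, with Benjamini-Hochberg adjustment over them. The Blimp1-int pair gives its 1 residual degree of freedom. A gene below background in a group has a bound, the other group's mean over the lowest signal above background on each dim array. Over all probes r was 0.965 and 0.970 between Blimp1-hi and the Blimp1-int replicates, and 0.984 between those replicates. Between 6483 and 7255 probes per array were above background, and the number of arrays limits the precision.

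The members and gene lists were chosen with earlier results of these data known. From each list the text names every called gene or, where none was called, the 2 brightest, and for each of the 4 genes the 5 nearest named genes; others named are examples chosen after their values were seen. Promoters were searched with Python 3.11.15. Alternatives were 75th percentile scaling, cyclic loess, quantile normalization without immunoglobulin probes, a cutoff of 2 SD, no filter on dim probes, the mean of a gene's probes and leaving out each Blimp1-int replicate.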

Additional observations from a re-analysis of the deposited data

How the results depend on the processing

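No difference of Chst1, Tent5c, Reln or Mtdh changed sign in any of the 8 alternative settings, in any of the 3 comparisons, and none was called between the plasma cell populations. Against naive cells the genes were chosen for this sign. Each gene has 1 probe, so the cutoff of 2 SD, no filter and the mean of a gene's probes left every difference as it was. Those settings could not change a sign. Over the 6 alternatives that give a test, the adjusted p of Blimp1-hi minus Blimp1-int ran from 0.00318 to 0.42 for Chst1, 0.00698 to 0.237 for Tent5c, 0.00643 to 0.221 for Reln and 0.00509 to 0.352 for Mtdh (limma). Leaving out each Blimp1-int replicate in turn leaves 0 residual degrees of freedom and so no test. It gave Blimp1-hi minus Blimp1-int differences of 0.063 to 0.844 for Chst1, 0.19 to 0.50 for Reln, -0.34 to -0.31 for Tent5c and -0.36 to -0.31 for Mtdh, and Blimp1-int minus naive differences of 3.44 to 4.23 for Chst1 and 2.29 to 2.59 for Reln. Quantile normalization without immunoglobulin probes gave Blimp1-hi minus naive differences of 4.56 for Chst1, 3.07 for Tent5c, 2.98 for Reln and 2.81 for Mtdh, and 2.96 for Mtdh in Blimp1-int. It tested fewer probes, and called 31 probes higher in Blimp1-hi than in Blimp1-int, against 90. It called 133 named genes lower in Blimp1-hi than in naive cells, against 203, and 2 listed genes higher, against 1, with Pabpc1 called at 1.25. Cyclic loess gave 2.38 for Mtdh in Blimp1-hi minus naive, and in Blimp1-int minus naive 3.57 for Chst1, 3.12 for Tent5c, 2.31 for Reln and 2.62 for Mtdh. It called 1 listed gene, Ybx1, lower in Blimp1-hi, against 0, and ended the call of Pabpc1 in Blimp1-int, at 0.78. The cause of these shifts was not tested. No paired analysis was possible, because the sample labels tie no arrays of different groups to a shared pool. Blimp1-hi and naive cells also have 1 array each. A background correction of raw signals was not run, since those columns are tied to no sample. Signal over background limits Chst1 and Tent5c in naive cells to bounds.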
